A study of Mus musculus with 3530 samples.

Results

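The cells described here are neurons of the medial prefrontal cortex of untrained mice, divided by whether a sequencing read of the tdTomato reporter was found in them. A cell was placed on the reporter-read side when its table entry for the reporter transgene was 1 count or more, and on the reporter-free side when it was 0, so the 2 sides were chosen by their reporter counts. Of the 3530 cells of the series, 435 carried the label Homecage. Of these, 131 were reporter-read and 304 reporter-free. The comparisons below used 130 reporter-read cells and the reporter-free cells of mice 2, 3 and 5, the Homecage mice with at least 10 cells on each side.

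Libraries of the series are of single cells from papain-digested cortex of TRAP2;Ai14 mice, made with Smart-seq2, which copies nearly whole transcripts of cells sorted into the wells of plates. Its other conditions are Context-Only, Fear-Only and Fear-Recall, here called the trained conditions. All mice, Homecage included, carried both alleles. The labels give no age, sex, tamoxifen schedule or time between labelling and dissociation, so what the Homecage mice went through beyond their condition's name is not known here.

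In TRAP2 mice a tamoxifen-dependent Cre recombinase is made from the Fos locus, so it appears where the immediate early gene Fos is induced. Ai14 places tdTomato behind a stop cassette in the Rosa26 locus, and recombination removes the cassette for the life of the cell. A tdTomato transcript therefore records that Cre acted at some earlier time, while Fos, Arc or Egr1 transcripts in the same cell reflect the time of dissociation. In animals left in their home cage such labelling is known to occur at a background level.

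In mouse 2, 29 cells (15.5%) were reporter-read. Mouse 3 gave 49 reporter-read and 47 reporter-free cells, and mouse 5 gave 52 and 82. The cells of mouse 2 came from a plate titled pos (20 of 85 cells reporter-read) and a plate titled neg (9 reporter-read and 93 reporter-free). Mouse 3 came from 1 plate titled with both gates, and mouse 5 carried no gate, so the share of reporter-read cells depends on how each mouse was collected. On the plate titled pos, 65 cells thus had no reporter count. The 17 cells of mouse 4 were all titled neg and all reporter-free, and a count of 0 in 17 cells allows a share of up to 17.6% (3 counts of the total; 19.5% by the Clopper-Pearson interval). Mouse 1 contributed a single cell. Neither mouse entered the comparisons.

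Reporter counts were low in most reporter-read cells. In mouse 2 they ran from 1 to 75 with a median of 5, and in mouse 5 from 1 to 80 with a median of 10. Mouse 3, whose highest cell lay above these, had a median of 12. Just inside the threshold lay 12 cells with 1 count and 10 with 2, and just outside it lay the cells at 0. At the median total of the reporter-free cells, 0 counts allowed up to 3.10 CPM of the reporter (counts scaled to a common library total) in mouse 2, 5.10 in mouse 3 and 4.49 in mouse 5. At or under that limit were 14 of the 29 reporter-read cells of mouse 2, 11 of 49 in mouse 3 and 8 of 52 in mouse 5. The limits cover counting error only, and they show that the 2 sides of mouse 2 are the least separated.

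**Figure D1:**
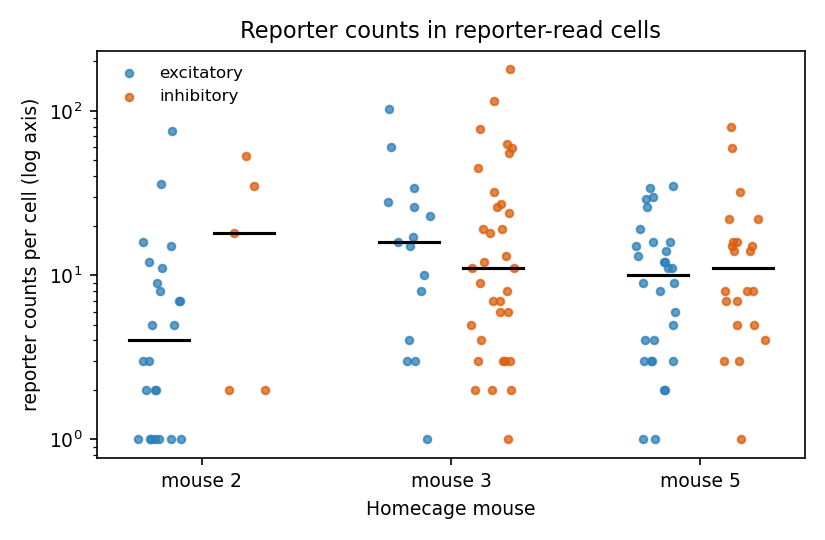
Reporter counts per reporter-read Homecage cell (log axis) for mice 2, 3 and 5, with excitatory cells in blue, inhibitory cells in orange and a bar at each median. The excitatory cells of mouse 2 sit lowest, at a median of 4 counts, against 16 in mouse 3 and 10 in mouse 5.

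Depth and quality differed between the sides. Median total counts per cell were 1539405 on the reporter-read side and 967492 on the reporter-free side of mouse 2, 962529 and 587687 in mouse 3, and 693230 and 668079 in mouse 5. Clustering of all 3530 cells without the reporter left 2 clusters with the fewest genes per cell, which are led by predicted genes and hold 340 cells of the series. They took up 27.6% of reporter-read and 36.1% of reporter-free cells in mouse 2, 0.0% and 14.9% in mouse 3, and 1.92% and 12.2% in mouse 5. On the pos plate of mouse 2 they held 48 of the 65 reporter-free cells. Their part in the gene differences was not tested beyond the refits without them that are given with the results.

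**Figure D2:**
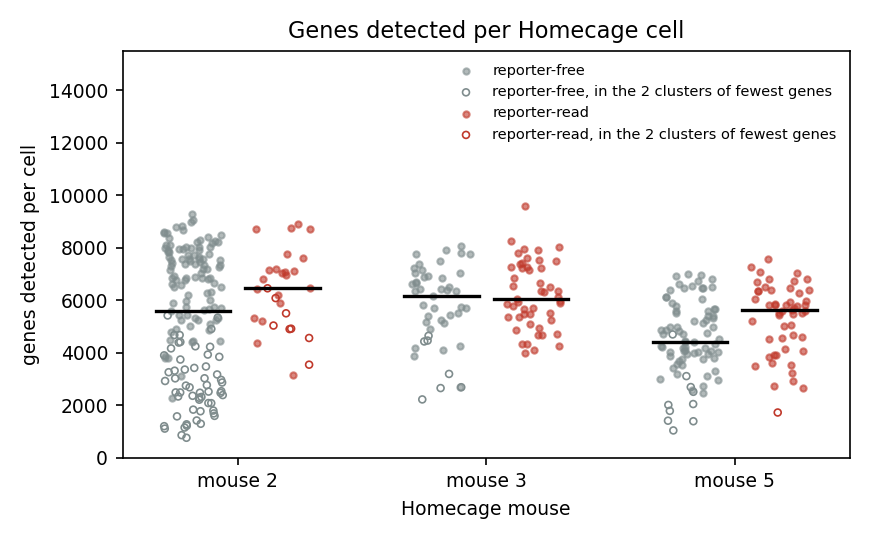
Genes detected per cell in the reporter-free (grey) and reporter-read (red) cells of Homecage mice 2, 3 and 5, with bars at the medians and open circles for cells in the 2 clusters of fewest genes. The open circles are mostly reporter-free and most numerous in mouse 2, where the reporter-free median was 5608.5 genes against 6455.0.

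The sides did not differ in 1 direction in their balance of inhibitory and excitatory neurons. Inhibitory neurons, recognised by GABA synthesis and transport genes such as Gad1, made up 17.2% of reporter-read against 39.2% of reporter-free cells in mouse 2 (5 of 29 cells against 62 inhibitory and 96 excitatory cells). In mouse 3 the shares were 69.4% and 36.2% (34 of 49 and 17 of 47), and in mouse 5 they were 42.3% and 31.7% (22 of 52 and 26 of 82). Mouse 2 thus went against mice 3 and 5. The Clopper-Pearson 95% intervals of the reporter-read shares were 5.85 to 35.8% in mouse 2, 54.6 to 81.7% in mouse 3 and 28.7 to 56.8% in mouse 5. These reporter-read shares span a wider range than the reporter-free ones, which lay between 31.7 and 39.2%.

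The mean within-mouse difference was 7.27 ± 27.8 percentage points (SD, n = 3), with p = 0.75 by an exact two-sided sign-flip test over mice, which cannot go below 0.25 here. Without mouse 3 the mean difference turned to -5.70 points. It was 14.8 points without the 2 clusters of fewest genes, which hold 32 of the 62 reporter-free inhibitory cells of mouse 2 and without which the difference in that mouse was -5.89 points. With only the pos plate of mouse 2 it was 2.30 points. In the 13 trained mice with 10 or more cells a side, the same difference was 1.38 ± 10.6 points and ran from -13.2 to 21.5, and the exact two-sided permutation p of Homecage against trained mice was 0.525 (560 assignments). Both mouse 2 and mouse 3 of Homecage lay outside the range of the trained mice, on opposite sides. In some trained mice the sides came largely from differently gated plates. The part of plate and gate in this and the later comparisons with trained mice was not tested.

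Clusters were also named by marker genes, and their shares taken first over all cells of a side, so that they move with the inhibitory share. Vip-like cells, interneurons that mainly inhibit other interneurons, made up 6.90% of reporter-read and 3.80% of reporter-free cells in mouse 2, 34.7% and 8.51% in mouse 3, and 19.2% and 9.76% in mouse 5. The mean difference was 12.9 ± 11.9 points (SD, n = 3), and mouse 2 rests on 2 reporter-read Vip-like cells. The inhibitory cluster of fewest genes was left unnamed but has Vip and Tac2 among its leading genes, and it held 0.0% of reporter-read and 20.3% of reporter-free cells in mouse 2, 0.0% and 8.51% in mouse 3, and 1.92% and 7.32% in mouse 5. Counted together with it, Vip-like cells made up 6.90% against 24.1% in mouse 2, 34.7% against 17.02% in mouse 3 and 21.2% against 17.1% in mouse 5, so mouse 2 was then opposite. A count of Vip was likewise present in 13.8% of reporter-read and 29.7% of reporter-free cells of mouse 2, 48.98% and 12.8% in mouse 3, and 36.5% and 19.5% in mouse 5. The direction of the Vip-like share in mouse 2 thus depends on the naming of that cluster. Layer-6-corticothalamic-like cells, the deep pyramidal neurons that project to the thalamus, made up 3.45% against 16.5% in mouse 2, 14.3% against 29.8% in mouse 3 and 19.2% against 25.6% in mouse 5, a mean difference of -11.6 ± 4.72 points. Over excitatory cells alone the shares were 4.17% against 27.1% in mouse 2 (1 of 24 and 26 of 96), equal in mouse 3 at 46.7% (7 of 15 and 14 of 30) and 33.3% against 37.5% in mouse 5 (10 of 30 and 21 of 56). The difference within the class, -9.03 ± 12.2 points, was therefore mostly that of mouse 2, and in mouse 3 the lower share among all cells went with its higher inhibitory share. Both classes were singled out after their values were seen, and with 3 mice no sign-flip test can go below 0.25.

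Over all cells, the difference for layer-6-corticothalamic-like cells was -0.083 ± 7.02 points in the 13 trained mice, below 0 in 6 of them. The exact permutation p of Homecage against trained mice was 0.0143, and 0.2 after Benjamini-Hochberg adjustment over the 14 groups of clusters compared, so it did not pass. Over excitatory cells the trained mice gave 0.96 ± 7.72 points, and the exact permutation p was 0.105, adjusted to 0.621 over 8 groups of clusters. For Vip-like cells the trained mice gave 6.45 ± 11.03 points, above 0 in 8 of 13, with an exact permutation p of 0.375 and an adjusted value of 0.583. Sst-like cells made up 5.87 ± 5.57% of reporter-read and 5.63 ± 4.39% of reporter-free Homecage cells (SD, n = 3). Pvalb-like cells made up 3.36 ± 4.27% and 2.25 ± 1.74%. Both differences lay within the spread of the mice. The names are those of clusters, and in mouse 3, 6 reporter-read cells were Sst-like while 3 of its 49 reporter-read cells held a count of Sst.

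**Figure D3:**
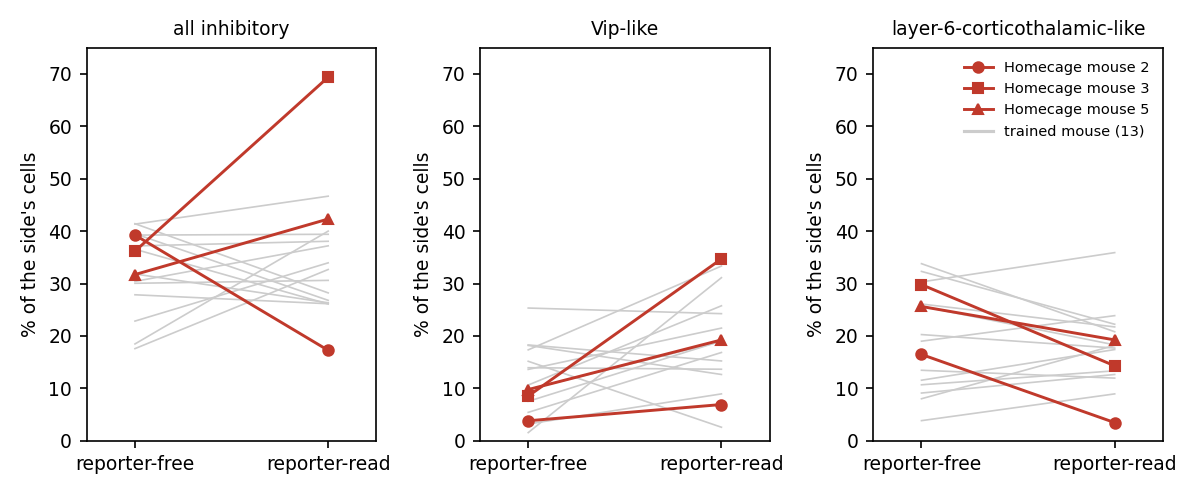
Share of cells that were inhibitory, Vip-like or layer-6-corticothalamic-like on the reporter-free and reporter-read side of each mouse (percent of that side's cells), with red lines for the 3 Homecage mice and grey lines for the 13 trained mice. The Homecage lines of the inhibitory panel cross, while those of the layer-6 panel, which also carry the inhibitory share, all point down.

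Gene expression was then compared on raw counts summed per mouse and side, with the mouse as a block. No gene passed an adjusted p of 0.05 in edgeR's quasi-likelihood test, that is 0 of 15308 genes (0.0%), and the smallest adjusted p was 0.999. An unadjusted p under 0.05 was reached by 479 genes (3.13%). DESeq2 on the same sums called 43 genes higher and 71 lower. Of all genes tested, 1734 (11.3%) were higher on the reporter-read side of all 3 mice and 2083 (13.6%) were lower in all 3, and the median log2 fold change was -0.05. The sums carry the class shares given above. In such sums, fewer cells of a type and less RNA per cell cannot be told apart. Every gene value below is the CPM of a sum after TMM scaling, unless stated otherwise, and none passed the edgeR test.

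Immediate early transcription factors, the first genes induced by neuronal activity, were more often on the reporter-read side. Of the 24 tested of 25 listed, 0 were called, 19 had a fold change above 0 and 5 below, and the median log2 fold change was 0.45. Higher in all 3 mice were 9 of 24 (37.5%) and lower in all 3 were 0, beside the 11.3% and 13.6% of all genes. An unadjusted p under 0.05 was reached by 7 of them, all higher. The list's median was 0.26 without mouse 3, and 0.71 when reporter-read cells had to hold a reporter level of at least 10 CPM.

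Junb, a partner of Fos in the AP-1 complex, measured 351 against 215.7 CPM in mouse 2 (reporter-read against reporter-free), 337 against 216.04 in mouse 3 and 527 against 356 in mouse 5. Its log2 fold change was 0.64 ± 0.14 (SE). Nr4a1, an orphan nuclear receptor induced by activity, measured 502 against 367, 151.9 against 107 and 1788 against 1086 CPM in the same order, with a log2 fold change of 0.56 ± 0.15. Mice differed more from each other in Nr4a1 than the sides did, so the levels of the sides overlapped although each mouse was higher on the reporter-read side. A count of Nr4a1 was present in 93.1% of reporter-read and 63.9% of reporter-free cells of mouse 2, 73.5% and 66.0% in mouse 3, and 94.2% and 69.5% in mouse 5. With every cell thinned to 100000 counts these shares were 89.7% and 59.5%, 61.2% and 55.3%, and 94.2% and 68.3%.

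Its relative Nr4a2 measured 52.7 against 29.5, 47.6 against 16.7 and 74.1 against 45.1 CPM, with a log2 fold change of 1.02 ± 0.28, and 1 cell supplied 54.4% of its reporter-read counts in mouse 2. Atf3, a stress- and activity-induced member of the CREB family, was scarce, at 12.7 against 1.02, 12.03 against 3.35 and 25.7 against 4.94 CPM. Its log2 fold change was 2.61 ± 0.64. It was counted in 1, 2 and 2 reporter-read and 1, 4 and 2 reporter-free cells of mice 2, 3 and 5, and 1 cell supplied 100%, 86.2% and 94.9% of the reporter-read counts, so these values are those of a few cells. Egr1, a zinc-finger immediate early factor, measured 573 against 363, 517 against 457 and 1091 against 767 CPM, with a log2 fold change of 0.45 ± 0.16.

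Fos itself, whose locus drives the recombinase, did not follow 1 direction. It measured 297.6 against 355 CPM in mouse 2, 555 against 412 in mouse 3 and 623 against 322 in mouse 5, a log2 fold change of 0.38 ± 0.26. A count of Fos was present in 79.3% and 75.3% of cells in mouse 2, 87.8% and 85.1% in mouse 3, and 86.5% and 69.5% in mouse 5, so most reporter-free cells held Fos transcripts as well. Npas4, a neuron-specific activity-dependent factor, measured 50.5 against 52.9, 21.3 against 34.0 and 23.6 against 22.1 CPM, with a log2 fold change of -0.21 ± 0.30. Arc, a synaptic immediate early gene, measured 280 against 165, 205.03 against 159.3 and 327 against 329 CPM, a log2 fold change of 0.37 ± 0.20. These 3 widely used activity markers were thus split between mice.

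The stretch before the start of Fos is shown because the recombinase of TRAP2 is made from this locus. That of Npas4 is shown because it holds the same activity motif as Fos, while Npas4 did not have the direction of Junb and Nr4a1. Both are RefSeq windows of 250 bases before the start on GRCm38.p6, Fos at chr12:85473640-85473889 on the plus strand and Npas4 at chr19:4989972-4990221 on the minus strand. Capitals mark TGACGT, the core of the cAMP response element bound by CREB, in either orientation (ACGTCA on the other strand), and TATAAA.
Fos: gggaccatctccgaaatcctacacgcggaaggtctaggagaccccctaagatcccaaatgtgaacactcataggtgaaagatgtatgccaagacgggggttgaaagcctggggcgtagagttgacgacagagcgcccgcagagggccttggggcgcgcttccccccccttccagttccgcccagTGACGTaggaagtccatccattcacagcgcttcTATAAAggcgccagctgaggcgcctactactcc
Npas4: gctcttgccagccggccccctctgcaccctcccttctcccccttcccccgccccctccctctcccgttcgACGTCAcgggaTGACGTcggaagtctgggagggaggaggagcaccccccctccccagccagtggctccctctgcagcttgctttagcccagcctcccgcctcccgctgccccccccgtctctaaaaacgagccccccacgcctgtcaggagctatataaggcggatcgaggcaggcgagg
The core begins 66 bases before the start in Fos, and the farther of 2 matches begins 180 bases before it in Npas4. It is present in 2125 of 32851 such windows (6.47%), and in windows of 8 of the 21 listed immediate early factors that matched the table. These 8 were Atf3, Btg2, Egr2, Egr4, Fos, Maff, Npas4 and Nr4a3, so neither Junb nor Nr4a1 was among them. TATAAA or its reverse complement is present in 12.4% of windows.

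**Figure D4:**
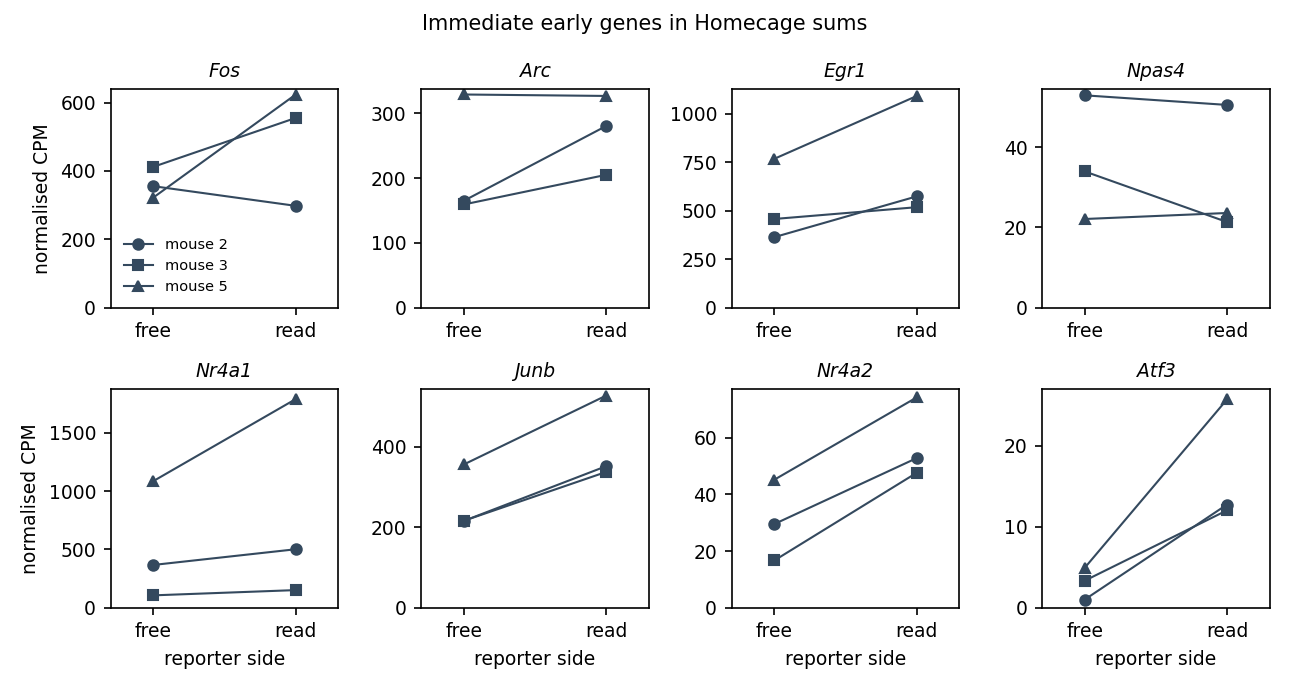
Level of 8 immediate early genes (CPM of summed counts after TMM scaling, axes from 0) on the reporter-free and reporter-read side of Homecage mice 2, 3 and 5, 1 line per mouse. Junb, Nr4a1, Nr4a2, Egr1 and Atf3 lie higher on the reporter-read side of all 3 mice, whereas Fos, Arc and Npas4 do not.

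The slower activity-regulated effectors were distributed in a similar way. Of 27 tested of 28 listed, 0 were called and 22 had a fold change above 0, with a median log2 fold change of 0.42. In all 3 mice, 7 (25.9%) were higher and 1 (3.70%) lower, beside 11.3% and 13.6% of all genes. The median was 0.28 with cells thinned to 100000 counts and 0.71 with sums kept per plate. Per1, a clock gene that is also induced through CREB, measured 53.3 against 26.95 CPM in mouse 2, 41.9 against 23.8 in mouse 3 and 303 against 160 in mouse 5, a log2 fold change of 0.91 ± 0.18. Vgf, a secreted neuropeptide precursor, measured 34.0 against 24.1, 90.0 against 33.5 and 79.1 against 31.8 CPM, a log2 fold change of 1.08 ± 0.29. Crem, which encodes activators and repressors of cAMP-responsive genes, measured 88.4 against 31.7, 102 against 65.9 and 100.1 against 62.8 CPM, a log2 fold change of 0.92 ± 0.26. Of the 19 tested members of the CREB family and its coactivators, 6 were above 0 and 13 below, with a median of -0.12.

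With genes of a mean log2 CPM under 5 set aside, those of smallest p on the higher side were Crh, Dnajb1, Per1, Enho, Nefm and Rora. Crh, the stress neuropeptide corticotropin-releasing hormone, measured 170.6 against 103.7 CPM in mouse 2, 493 against 166.8 in mouse 3 and 622 against 257 in mouse 5, a log2 fold change of 1.19 ± 0.21. In mouse 2, however, 1 cell supplied 93.3% of the reporter-read counts of Crh. Dnajb1, a co-chaperone of Hsp70, measured 218.5 against 139, 229.1 against 107.96 and 630 against 335 CPM, with a log2 fold change of 0.88 ± 0.17. The heat shock and dissociation stress list it belongs to had a median of -0.06 over 16 tested genes, with 4 higher in all 3 mice. Enho, which encodes the secreted peptide adropin, measured 116 against 59.5, 161 against 73.4 and 95.4 against 57.7 CPM, a log2 fold change of 0.94 ± 0.19, with 62.1% of its reporter-read counts in mouse 2 from 1 cell. Rora, an orphan nuclear receptor, measured 96.6 against 63.3, 124.2 against 55.2 and 135 against 65.6 CPM, a log2 fold change of 0.94 ± 0.21.

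Neurofilament genes, which encode the intermediate filaments of axons, had 4 of 5 members higher in all 3 mice, beside 11.3% of all genes. Their median log2 fold change was 0.89. Nefm measured 123.7 against 41.2, 135 against 57.2 and 82.6 against 51.7 CPM, with a log2 fold change of 1.17 ± 0.25. Nefl measured 222 against 90.8, 198.7 against 83.9 and 169.3 against 156.4 CPM, a log2 fold change of 0.89 ± 0.29. Both sides of Nefm stood apart, while for Nefl mouse 5 was nearly level. The list's median was 0.56, with 3 of 5 above 0, when cells were thinned to 100000 counts. Within excitatory neurons all 5 lay above 0, with a median of 0.99. Within inhibitory neurons, compared in mice 3 and 5, 2 of 4 tested lay above 0, with a median of -0.04.

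On the lower side the named genes of smallest p were Cyr61, Ddx3x, Mrps10, Epm2aip1 and Ugcg, beside 1 predicted gene that is not named. Cyr61, a secreted matrix-associated protein, measured 51.6 against 118.1 CPM in mouse 2, 49.3 against 153.8 in mouse 3 and 4.53 against 33.8 in mouse 5, a log2 fold change of -1.89 ± 0.38. Its reporter-read counts came from 4 cells each in mice 2 and 5. Ddx3x, an RNA helicase encoded on the X chromosome, measured 40.4 against 68.1, 44.1 against 111 and 48.9 against 111.7 CPM, a log2 fold change of -1.09 ± 0.22. Mrps10, a mitochondrial ribosomal protein, had a log2 fold change of -0.74 ± 0.17, and Ugcg, which makes glucosylceramide, one of -1.08 ± 0.26. Epm2aip1, a partner of the glycogen phosphatase laforin, had one of -0.87 ± 0.21.

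Of the neuropeptides, 19 of 20 were tested, 11 were above 0 and 8 below, with a median log2 fold change of 0.31. In all 3 mice, 5 (26.3%) were higher and 3 (15.8%) lower, beside 11.3% and 13.6% of all genes. Npy, an inhibitory peptide of several interneuron types, measured 1257 against 956 CPM in mouse 2, 1039 against 131 in mouse 3 and 660 against 175 in mouse 5, a log2 fold change of 1.77 ± 0.51. A single cell supplied 97.6% of the reporter-read Npy counts of mouse 2. Sst, the peptide of another interneuron class, measured 1232 against 518, 1050 against 808 and 185 against 157.3 CPM, a log2 fold change of 0.62 ± 0.24. It was counted in 2, 3 and 2 reporter-read cells, and its fold change became -7.51 when reporter-read cells had to hold 5 or more reporter counts. Vip measured 2695 against 4244 CPM in mouse 2, 13637 against 6466 in mouse 3 and 8694 against 5292 in mouse 5, a log2 fold change of 0.39 ± 0.36, with the mice split as the inhibitory shares were. Of the 8 Vip interneuron markers tested, Vip included, 2 lay above 0 and 6 below, with a median of -0.33. None of them was higher in all 3 mice and 1 (12.5%) was lower in all 3.

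Class markers showed no common direction. Gad1 measured 151 against 257.9, 240.8 against 180 and 802 against 370 CPM, and Slc17a7, the vesicular glutamate transporter of cortical excitatory neurons, 50.5 against 45.2, 49.9 against 68.9 and 62.7 against 46.9 CPM. Their log2 fold changes were 0.26 ± 0.37 and 0.04 ± 0.27. Pvalb was listed at 0.00 in the reporter-read sum of mouse 2 and at 8.34 against 0.27 CPM in mouse 5, too few counts for a fold change of use. All 7 tested markers of layer 6 corticothalamic cells lay below 0, with a median of -0.53. Of these, 2 (28.6%) were lower in all 3 mice, beside 13.6% of all genes. Rprm, one of these markers, measured 40.5 against 158.3, 312 against 385 and 168.1 against 284.5 CPM, a log2 fold change of -1.002 ± 0.34. Foxp2, a transcription factor of the same cells, measured 4.91 against 44.6, 15.3 against 31.8 and 35.0 against 54.5 CPM, a log2 fold change of -1.59 ± 0.58, with 89.9% of its reporter-read counts in mouse 2 from 1 cell. These sums carry the class shares as well.

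Genes of the translation and energy machinery lay on the reporter-free side by small amounts. Of 80 tested cytosolic ribosomal protein genes, 70 had a fold change below 0 and 10 above, with a median of -0.16, and of 77 nuclear oxidative phosphorylation genes 64 were below 0, with a median of -0.16. Rps27 measured 336 against 517, 305 against 396 and 180 against 231 CPM, a log2 fold change of -0.45 ± 0.15. Without the 2 clusters of fewest genes the medians of the 2 lists were -0.02, with 49 of 80 below 0, and -0.05, with 48 of 77 below 0. All 13 mitochondrially encoded transcripts lay below 0, with a median of -0.21. Their summed level ran from 10651 to 14642 CPM in reporter-read and from 13037 to 16238 in reporter-free sums.

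Markers of cells other than neurons were low on both sides and their part in the results was not tested. The summed level of 11 astrocyte markers ran from 480 to 607 CPM in reporter-read and from 469 to 716 in reporter-free sums. The 10 oligodendrocyte markers ran from 135 to 521 and from 102 to 286, with 2 of them at 0 on each side. The 10 microglia markers ran from 12.9 to 153.9 and from 28.01 to 101. The 8 endothelial and mural markers ran from 0.066 to 18.7 and from 7.04 to 15.9, and the 7 oligodendrocyte precursor markers from 0.0 to 24.8 and from 0.127 to 10.2, with 4 and 5 of them at 0 in every reporter-read sum. The 18 heat shock and dissociation stress genes ran from 10668 to 13520 and from 10605 to 14186.

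Excitatory neurons were compared alone to hold the class constant, with 24, 15 and 30 reporter-read cells in mice 2, 3 and 5. Subclass shares could still differ within the class. Layer-6-corticothalamic-like cells were 4.17% of reporter-read and 27.1% of reporter-free excitatory cells in mouse 2, equal in mouse 3, and 33.3% against 37.5% in mouse 5. The part of such shares in the values below was not tested. Of 14044 genes tested, 0 were called (0.0%) and 441 had an unadjusted p under 0.05 (3.14%), while DESeq2 called 35 higher and 47 lower. All genes higher in every mouse made up 10.9%, and those lower in every mouse 13.4%. Of 22 immediate early factors tested, 18 were above 0 and 4 below, with a median log2 fold change of 0.60. In all 3 mice, 7 (31.8%) were higher and 2 (9.09%) lower. Among effectors, 22 of 27 were above 0, with a median of 0.53.

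Nr4a1 measured 484 against 355 CPM in mouse 2, 205.2 against 78.0 in mouse 3 and 1129 against 667 in mouse 5 in excitatory neurons, a log2 fold change of 0.86 ± 0.23. Egr1 measured 626 against 371, 770 against 479 and 1101 against 790 CPM (0.64 ± 0.16). Arc, split in the whole sums, measured 340 against 264.3, 388 against 178.9 and 575 against 449 CPM here (0.61 ± 0.22). Fos measured 259 against 349, 436 against 284.2 and 322 against 219.3 CPM (0.25 ± 0.26), with mouse 2 again opposite. Nefm (1.27 ± 0.22), Per1 (1.03 ± 0.21), Rora (1.09 ± 0.24) and Dnajb1 (0.81 ± 0.19) had the smallest p of the higher genes. On the lower side stood Fbxo11, a ubiquitin ligase subunit, at 14.1 against 64.9, 7.60 against 52.8 and 19.3 against 53.5 CPM (-2.16 ± 0.39). Cyr61 (-1.59 ± 0.33) and Ramp3, a modifier of peptide receptors (-0.80 ± 0.18), followed.

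Inhibitory neurons could be compared in mice 3 and 5, with 34 and 22 reporter-read cells, since mouse 2 had 5. Of 12403 genes tested, 0 were called (0.0%) and 398 had an unadjusted p under 0.05 (3.21%), while DESeq2 called 56 higher and 36 lower. With 2 mice, 27.8% of genes were higher and 23.4% lower in both. Immediate early factors were evenly split, 11 above and 11 below 0 with a median log2 fold change of -0.03, and 6 of 22 (27.3%) were higher in both mice. Effectors were not split in this way. Of 24 tested, 15 were above 0 and 9 below, with a median of 0.57, and 12 were higher and 4 lower in both mice. Whether either list differs from its values in excitatory neurons was not tested. Arc measured 50.6 against 122.7 CPM in mouse 3 and 4.56 against 36.3 in mouse 5 (-2.12 ± 0.68), opposite in sign to its value in excitatory neurons. Fos measured 612 against 590 and 1062 against 622 CPM (0.41 ± 0.26). Vip measured 23314 against 16096 and 20777 against 19837 CPM (0.30 ± 0.20).

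Npy had the smallest p of the higher genes in inhibitory neurons, at 1530 against 260 CPM in mouse 3 and 1528 against 619 in mouse 5 (1.93 ± 0.36). Zbtb20, a zinc-finger repressor, followed at 128 against 43.7 and 158.8 against 16.8 CPM (2.39 ± 0.58), with Slc5a3, a myo-inositol transporter (2.38 ± 0.57), and Luzp2 (1.85 ± 0.45). The lower genes were Ddx3x (-2.08 ± 0.37), Cadps2, which primes dense-core vesicles (-2.83 ± 0.61), Tnfaip8l3 (-2.09 ± 0.48) and Tac1 (-2.75 ± 0.60). Tac1, the precursor of substance P, was listed at 0.00 on both sides of mouse 5 and so rests on mouse 3 alone. Of 80 ribosomal protein genes, 65 (81.3%) were lower in both mice in these neurons, with a median of -0.39. The cluster of fewest genes held 4 of 17 reporter-free inhibitory cells in mouse 3 and 6 of 26 in mouse 5, against 0 of 34 and 1 of 22 reporter-read ones. Without it the median was -0.32, with 74 of 80 below 0.

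Whether the contrast between reporter-read and reporter-free cells differed from that in trained mice was tested as an interaction over 16 mice, 3 of Homecage and 13 trained, with each mouse its own block and no control sums shared. In some trained mice the sides came largely from differently gated plates. In Context-Only mouse 3, 87.2% of cells titled pos and 12.1% of cells titled neg were reporter-read. Both sides of Homecage mouse 3, and both of mouse 5, came from a single plate. The part of plate and gate in the difference between conditions was not tested. None of 16372 genes passed in edgeR (0.0%), the smallest adjusted p being 0.507, and 920 had an unadjusted p under 0.05 (5.62%). DESeq2 called 245, of which 62 were higher. Without Homecage mouse 5 the smallest adjusted p was 0.0568. For the immediate early list the median log2 fold change in this fit was 0.44 in Homecage and 0.50 in the trained conditions, and for effectors it was 0.40 and 0.43, with 0 members called in the difference.

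The genes of smallest p for a higher contrast in Homecage were Mydgf, Dctn1, Rpp14, Dnajb1, Wdr54 and Fam114a2. Dnajb1 had a log2 fold change of 0.87 ± 0.19 in Homecage and 0.10 ± 0.09 in the trained mice. Dctn1, the large subunit of the dynein adaptor dynactin, had 0.76 ± 0.15 and 0.12 ± 0.08, and Rpp14, a ribonuclease P protein, 0.89 ± 0.23 and -0.04 ± 0.11. For a lower contrast they were Mysm1, Asb8, Ezh1, Abi2, Ddx3x and Adprhl2. Ezh1, a histone methyltransferase, had -0.93 ± 0.26 in Homecage and 0.22 ± 0.13 in the trained mice. Mysm1, a histone H2A deubiquitinase, had -0.56 ± 0.17 and 0.28 ± 0.08, and Ddx3x -1.10 ± 0.24 and -0.11 ± 0.12.

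In the trained mice 31 genes were called for the same contrast, and these were looked up in the Homecage sums. The calls were on the trained contrast, but came from the fit that also held the Homecage sums. Those sums thus entered the spread behind the calls, so the Homecage values are not independent of the choice of genes. Of 24 genes higher in reporter-read cells of trained mice, 22 were above 0 in Homecage and 17 were higher in all 3 mice. Among all genes, 46.2% were above 0 and 11.3% were higher in all 3 mice. The median log2 fold change of the 24 was 0.34 in Homecage and 0.44 in the trained mice. Of 7 lower genes, 6 were below 0 in Homecage and 2 were lower in all 3 mice, with medians of -0.36 and -0.77. Among all genes, 53.8% were below 0 and 13.6% were lower in all 3 mice. The 24 include Nr4a1, Egr4, Vgf and Nefm, and also the Rosa26 transcript Gt(ROSA)26Sor, whose locus holds the reporter and which is therefore no independent readout. Ifrd1, an interferon-related regulator, had 0.79 ± 0.21 in Homecage, and Pacsin1, a synaptic vesicle endocytosis protein, 0.45 ± 0.16. Paip1 and Ptp4a2 did not follow, at -0.05 ± 0.22 and -0.03 ± 0.15.

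**Figure D5:**
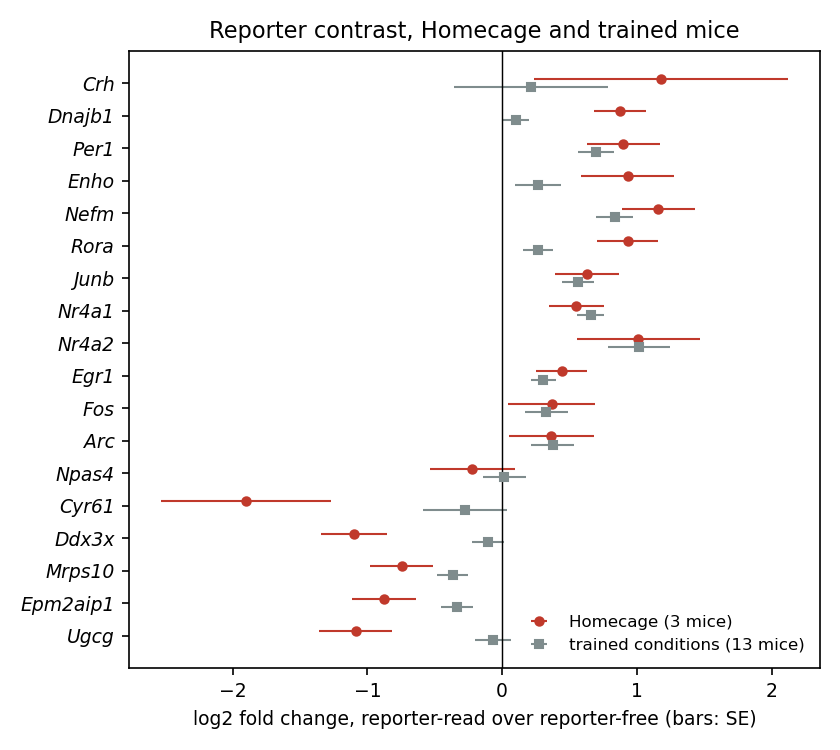
Log2 fold change of reporter-read over reporter-free sums in Homecage (red circles, 3 mice) and in the trained conditions (grey squares, 13 mice) from the fit on all 4 conditions, with bars for the standard error. Junb, Nr4a1 and Nr4a2 sit at like values in both, while Dnajb1 and Ddx3x lie farther from 0 in Homecage, and no difference passed the test.

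The mice numbered 5 carried no gate in any condition. In them, reporter-read cells made up 38.8% of Homecage cells (52 reporter-read and 82 reporter-free, Clopper-Pearson 95% interval 30.5 to 47.6%). Reporter-read cells made up 28.6% (30 cells) and 30.7% (46 cells) in the Context-Only mice, 28.3% (39 cells) in the Fear-Only mouse and 40.9% (45 cells) in the Fear-Recall mouse. The median reporter count of the reporter-read cells was 10 in Homecage, 16 and 21 in the Context-Only mice, 9 in Fear-Only and 13 in Fear-Recall. These are the values that chose the sides and each condition has 1 or 2 such mice, so they are given without a test. Among the mice numbered 5, Homecage thus lay between the lowest and highest trained mouse in both. The mice numbered 2 were gated. On their plates titled pos, reporter-read cells made up 23.5% in Homecage, 34.5% in Context-Only, 63.04% in Fear-Only and 76.6% in Fear-Recall. Median reporter counts there were 2.5, 8, 8 and 24 in that order, so Homecage was lowest in both. On their plates titled neg, the shares were 8.8%, 8.8%, 8.1% and 8.3%, and the medians 8, 9.5, 5 and 3. These gated values were not tested either. The mice numbered 1 carried no gate and stood above the mice numbered 5. Their reporter-read share was 57.7% in Fear-Recall and 100% of 36 cells in Fear-Only, and their median reporter levels were 180 and 248.5 CPM, against 17.1 CPM in Homecage mouse 5.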

How the data were processed

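The authors deposited 1 table of raw counts per gene and cell (23355 genes, 3530 cells), which were whole numbers. Bowtie 0.12.2, mm8 and mm10 appear, with no role, in the submitters' processing notes, and no source used here names the counting tool. Groups and mouse numbers came from the labels, which name each mouse but no litter or batch. Same-numbered mice of different conditions did not deviate together (r from -0.0838 to 0.0855 over 22 pairs), so mouse numbers were not paired across conditions, whereas both sides of a mouse come from 1 animal and were blocked.

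The reporter was left out of library sizes and tests. Cells were clustered with scanpy 1.11.5 (Leiden, resolution 1) and named from marker lists, a subclass name needing a score at least 0.5 above the next and 3 markers at 5 CPM or more. This naming rule was set after the clusters were seen. Cells came singly from plates, and no doublet caller was run. Counts were summed per mouse and side (10 or more cells), giving totals of 35661853 to 155724857, and fitted with edgeR 4.0.16 (TMM, filterByExpr, Benjamini-Hochberg at 0.05). The standard error is the log2 fold change over the square root of F. DESeq2 1.42.0 was an alternative. The fits were also run on simulated counts with known changes, drawn with a common spread for all genes and no differences between mice. That run therefore does not show how the fits handle the spread of these mice. Members, gene lists and the comparisons of subclass shares were chosen with earlier results of these data known. Named genes were the 6 (4 within a class) of smallest p per direction at a mean log2 CPM of 5 or more, the markers Fos, Arc, Egr1, Npas4, Nr4a1, Vip, Sst, Pvalb, Gad1 and Slc17a7, and list members of smallest p. The genes called in trained mice were chosen outside that rule, after their values were seen.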

Additional observations from a re-analysis of the deposited data

Results flagged for a closer look

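The single cell of Homecage mouse 1, an excitatory neuron that entered no comparison, had a reporter level of 189.8 CPM, above the limit that 0 counts allowed in the reporter-free cells of the other mice (3.10 CPM in mouse 2, 5.10 in mouse 3 and 4.49 in mouse 5). The reporter-read cells of the other Homecage mice had medians of 5.11 in mouse 2, 15.7 in mouse 3 and 17.1 in mouse 5. The reporter-read cells of Fear-Only and Fear-Recall mice numbered 1 had medians of 248.5 and 180 CPM. With 1 cell no test is possible.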

How the results depend on the processing

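Every edgeR alternative left 0 genes called in all 4 comparisons, and DESeq2 called 114 genes for the Homecage contrast, 245 for its difference from trained conditions, 82 in excitatory and 92 in inhibitory neurons. The cause of that gap was not tested. Among the genes checked in each comparison, DESeq2 called 10 of 33 in the Homecage contrast and 4 of 12 in its difference from trained conditions. It called 7 of 11 checked in excitatory and 6 of 11 in inhibitory neurons, so whether these pass depends on the tool. Without the replicate block (paired sides of a mouse), 0 genes were called, and 0 with a replicate block by mouse number in the difference from trained mice. The mean inhibitory share difference ran from -5.70 to 21.9 points with 1 mouse left out. Of the 33 genes checked in the Homecage contrast, 5 changed sign in 17 of 495 refits, none of which any tool called. Npas4 went to 0.15 with cells of 3000 or more genes. Sst went to -7.51 with 5 or more reporter counts and -2.18 with 10 or more reporter CPM. Pvalb went to -0.14 without the block, -0.57 with 10 or more reporter CPM, -0.46 thinned, and from -3.65 to 2.68 with a mouse left out. Gad1 went to -0.19 with sums per plate and from -0.19 to 0.76 with a mouse left out. Slc17a7 went to -0.026 (5 or more counts), -0.034 (10 reporter CPM), -0.15 (thinned), -0.066 (3000 genes), -0.018 (without the 2 clusters of fewest genes) and from -0.16 to 0.27 with a mouse left out. Without those clusters the ribosomal protein median of excitatory neurons turned from -0.10 to 0.078, and that of immediate early factors in inhibitory neurons was -0.15. The exclusion of those clusters, the pos plate alone and the shares within a class were added after seeing the data. Sums per plate kept only the pos plate of mouse 2. Inhibitory neurons without a mouse leave 1 mouse and no test. Depth limits the reporter call itself, as the 22 cells with 1 or 2 counts show.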

Other observations

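Among receptor and channel genes of the Homecage sums, 0 were called. Of 33 glutamate receptor and postsynaptic scaffold genes tested, 21 lay above 0 with a median log2 fold change of 0.12, and 6 (18.2%) were higher in all 3 mice, beside 11.3% of all genes. Of 14 GABA receptor genes, 8 lay above 0 and 1 was higher in all 3 mice. Of 34 synaptic vesicle release genes, 16 lay above 0 and 8 (23.5%) were higher in all 3 mice. Syn1, a synapsin that tethers vesicles, measured 249.3 against 147.98 CPM in mouse 2 (reporter-read against reporter-free), 177 against 150 in mouse 3 and 299.3 against 222 in mouse 5, a log2 fold change of 0.47 ± 0.18. Of 38 potassium channel genes, 17 lay above 0, with a median of -0.05. Kcnip4, a potassium channel interacting protein, measured 95.7 against 59.1, 21.04 against 13.5 and 140.9 against 84.3 CPM, a log2 fold change of 0.69 ± 0.20. Calb1, a calcium-binding protein of upper-layer and some inhibitory cells, measured 125 against 91.4, 190 against 57.4 and 79.0 against 55.9 CPM, a log2 fold change of 0.89 ± 0.31, with 62.9% of its reporter-read counts in mouse 2 and 53.7% in mouse 5 from 1 cell.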
